A study of Rattus norvegicus with 6 samples.

Results

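The miR-26 family of the rat was described by its 4 mature arms, rno-miR-26a-5p, rno-miR-26a-3p, rno-miR-26b-5p and rno-miR-26b-3p, written below without the prefix, which were all the entries named miR-26a or miR-26b among the 728 mature microRNAs (miRNAs) listed in the deposited count table. Small RNA had been sequenced from exosomes released by neonatal cardiac fibroblasts (3 libraries) and from the fibroblasts themselves (3 libraries). Both groups came from hearts of Wistar rats at postnatal days 1 to 2, with no genotype or drug difference between them. Fibroblasts were grown in 10% serum, and exosomes, small membrane vesicles, were pelleted by ultracentrifugation from medium conditioned for 48 h with 1% serum from which vesicles had been removed. The same 48 h and 1% depleted serum are recorded for the fibroblast libraries. The exosome libraries are called 1, 2 and unnumbered, since 1 data column carried no number, and the fibroblast libraries 1, 2 and 4. The labels do not say whether libraries of a group came from separate cultures, so the spread that each p-value is set against may be technical.

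miRNAs are short RNAs that guide Argonaute proteins to messenger RNAs through base pairing of the seed, bases 2 to 8 counted from the 5′ end, and so lower the output of those messages. A hairpin precursor yields a guide strand, which is kept, and a passenger strand, most of which is degraded. miR-26 guides are expressed in most tissues, lie inside introns of genes for small phosphatases of the RNA polymerase II tail, and are known repressors of the histone methyltransferase EZH2. In heart, miR-26a has been reported to restrain collagen and connective tissue growth factor production by fibroblasts.

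The sequences are shown because both guides carry the same seed and differ little elsewhere, which bears on how far their reads can be told apart. Mature sequences and hairpins were taken from RefSeq (build GRCr8; 4 of 4 members matched), with the seed in capitals in the mature strands.
miR-26a-5p: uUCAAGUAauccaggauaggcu
miR-26b-5p: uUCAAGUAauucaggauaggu
miR-26a-3p: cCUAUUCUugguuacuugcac
miR-26b-3p: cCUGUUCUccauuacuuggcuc
Counted from base 1 at the 5′ end and compared without gaps over 21 bases, the guides miR-26a-5p and miR-26b-5p differed at 2 positions, C11U and C21U, and miR-26a-5p was 1 base longer at 22 bases. Over their first 18 bases they differed by 1 base, while the next nearest listed miRNA differed from miR-26a-5p by 7 bases (miR-339-5p) and from miR-26b-5p by 8 bases (miR-155-5p). Among the 655 listed miRNAs with a RefSeq sequence, no other shared the guide seed UCAAGUA. The passengers differed at 7 of 21 compared positions, of which A4G lies in the seed, and neither passenger seed was shared by another of these 655 miRNAs. Reads with an error at base 11 could be counted for the wrong guide, and how mismatches were treated is not given in the sources used here.

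The hairpins, with both arms in capitals, show each guide on the 5′ side of the loop and each passenger on the 3′ side.
Mir26a: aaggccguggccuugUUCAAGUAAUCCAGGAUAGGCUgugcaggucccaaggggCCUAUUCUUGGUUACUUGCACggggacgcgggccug
Mir26b: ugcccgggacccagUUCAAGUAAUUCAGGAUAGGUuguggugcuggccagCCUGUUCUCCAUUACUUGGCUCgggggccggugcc
Mir26a lies at chr8:127633048-127633137 on the plus strand and Mir26b at chr9:83425709-83425793 on the plus strand (GRCr8; the deposited data were processed on rn5, and no coordinate of that build is given). In the same assembly Mir26a falls within the span of Ctdspl and Mir26b within the span of Ctdsp1, both genes for C-terminal domain small phosphatases.

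The exosome libraries were shallow and dominated by 1 miRNA. They held 113129 to 120224 miRNA counts, of which miR-873-3p took 84.9% to 90.1%, and the fibroblast libraries held 2439559 to 12508651 counts, of which it took 0.391% to 2.37%. Without miR-873-3p, 11825 to 18164 counts were left in exosome libraries. The median listed miRNA had 8, 7 and 3 counts in exosome libraries 1, 2 and unnumbered. The unnumbered exosome library stood apart from the other exosome libraries. Of its counts without miR-873-3p, 10 miRNAs typical of fibroblasts and other mesenchymal cells made up 14.0%, against 1.24% and 1.92% in exosome libraries 1 and 2 and 53.4% to 55.2% in fibroblast libraries. All 10 of these markers were detected in every fibroblast library, while 7 cardiomyocyte markers together made up 0.00803% to 0.0201% of all fibroblast counts. In bulk libraries such as these, fewer cells or vesicles carrying a miRNA and less of it in each cannot be told apart. Each change of a member below is given with and without this library. As shares of counts without miR-873-3p, 2 endothelial markers made up 0.639% to 0.973% in exosomes and 0.0101% to 0.0156% in fibroblasts. On this scale 7 blood cell markers made up 0.187% to 0.254% in exosomes and 0.0113% to 0.0405% in fibroblasts, with no overlap between the groups for either list. The 7 cardiomyocyte markers were separated the same way, at 0.0507% to 0.0881% in exosomes and 0.00823% to 0.0202% in fibroblasts. A rise on this scale was common to most miRNAs. With these counts as library size, 378 of 696 tested miRNAs were called higher in exosomes and 36 lower, with a median log2 fold change of 2.37. How many miRNAs were separated on this scale was not counted. As shares of all counts the blood cell markers overlapped, at 0.0252% to 0.0283% in exosomes and 0.0110% to 0.0404% in fibroblasts. The cardiomyocyte markers overlapped too, at 0.00504% to 0.0133% of all counts in exosomes and 0.00803% to 0.0201% in fibroblasts. By the test used below 1 of 2 endothelial and 1 of 7 blood cell markers were higher in exosomes, and the others were not called. Among 5 tested cardiomyocyte markers 1 was lower in exosomes, 0 were higher and 4 were not called. Over all tested miRNAs 18.6% were lower and 11.3% higher. All 10 mesenchymal markers were lower in exosomes by the test used below, with miR-152-3p at 0 in exosome library 2, and the part of cell makeup in the values of the miR-26 arms was not tested.

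miR-26a-5p, the family's main guide, was among the most abundant miRNAs of cardiac fibroblasts and was lower in their exosomes. It had 45, 44 and 127 reads in exosome libraries 1, 2 and unnumbered, against 213483, 307027 and 46731 reads in fibroblast libraries 1, 2 and 4. Its abundance rank among the 728 miRNAs was 83, 61 and 20 in exosomes, against 6, 6 and 11 in fibroblasts. The groups did not overlap, and the unnumbered exosome library was highest of the exosome libraries by every one of these measures. As a share of counts without miR-873-3p it made up 0.248% (95% Clopper-Pearson interval 0.181 to 0.331), 0.307% (0.223 to 0.412) and 1.07% (0.896 to 1.28) in the exosome libraries, against 3.39%, 2.46% and 1.96% in the fibroblast libraries. Every interval given here reflects counting alone, as amplified reads are not separate molecules.

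On the scale of reads relative to library size (CPM) after TMM scaling, which sets libraries level by the bulk of their miRNAs, miR-26a-5p averaged 1031 ± 1247 CPM in exosomes and 23698 ± 11129 CPM in fibroblasts (SD, n = 3 each). Its log2 fold change, exosome over fibroblast, was -4.54 (SE 1.48), a 23.2-fold lower level (quasi-likelihood F test of edgeR, p adjusted by Benjamini and Hochberg over all tested miRNAs, adjusted p = 0.010). Without the unnumbered library the log2 fold change was -6.33 (SE 1.40, edgeR adjusted p = 8.3e-05), 80.4-fold lower. Without exosome library 1 it was -4.12 (SE 1.82) and without exosome library 2 -4.59 (SE 1.89), and neither passed (edgeR adjusted p = 0.093 and 0.073); both of these fits keep the unnumbered library as 1 of only 2 exosome libraries. Its adjusted p lay between 1.3e-09 and 0.093 over all 16 settings.

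miR-26b-5p, the second guide, was a minor form in fibroblasts and was also lower in exosomes. It had 17, 11 and 8 reads in exosome libraries 1, 2 and unnumbered, against 10526, 18745 and 2369 reads in fibroblast libraries 1, 2 and 4. Its rank was 210, 243 and 168 in exosomes and 49, 50 and 64 in fibroblasts. The groups did not overlap on the TMM scale, where its values were 105, 86.2 and 156 CPM in exosome libraries and 1705, 753 and 1225 CPM in fibroblast libraries. It fell by 3.45 on the log2 scale (SE 0.86), a 10.9-fold lower level in exosomes (edgeR adjusted p = 0.00065). In contrast to miR-26a-5p its exosome libraries lay close together, with a mean of 116 ± 35.9 CPM against 1228 ± 476 CPM in fibroblasts (SD, n = 3 each), and leaving out any 1 library kept it past the threshold (edgeR adjusted p = 0.00021 to 0.024). Without the unnumbered library its log2 fold change was -3.76 (SE 1.00, edgeR adjusted p = 0.0012).

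**Figure D1:**
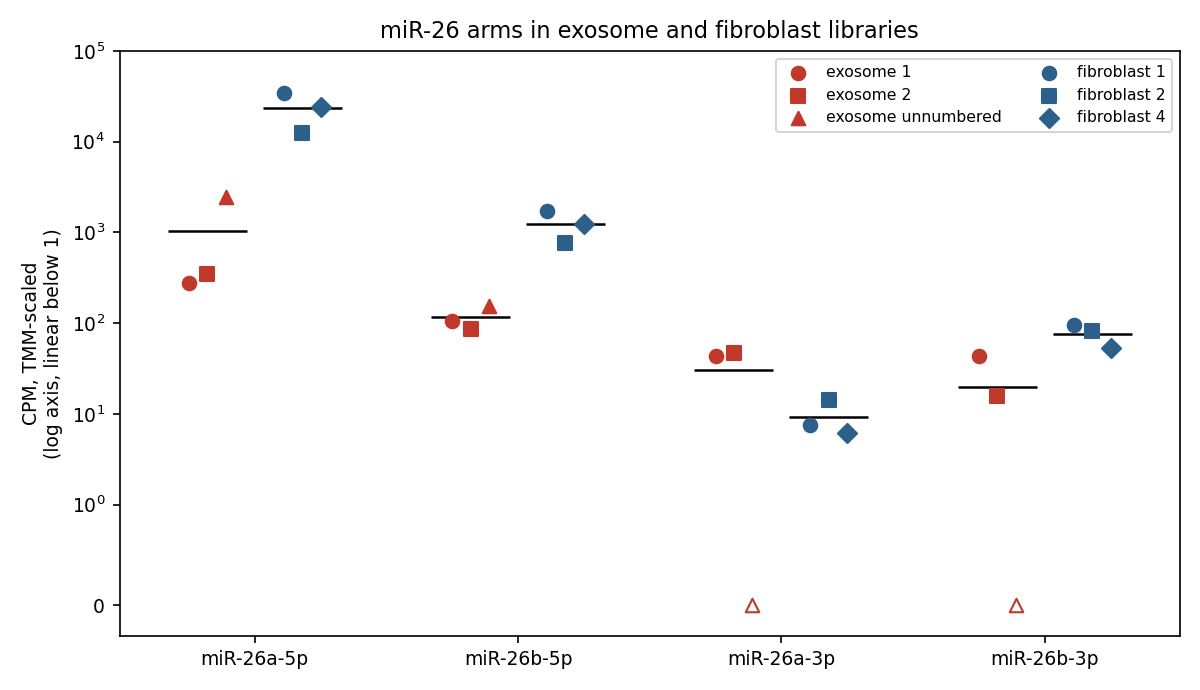
CPM after TMM scaling (symmetric log axis, linear below 1) of each miR-26 arm in the 3 exosome libraries (red, left) and the 3 fibroblast libraries (blue, right), with the mean as a line and open symbols for libraries with 0 reads. Both guides (5p) are lower in every exosome library than in any fibroblast library, miR-26a-5p of the unnumbered exosome library stands at 2471 CPM above the other exosome libraries at 279 and 345, and both passengers (3p) have 0 reads in that library.

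The passenger miR-26a-3p was rare in both groups. It had 7, 6 and 0 reads in exosome libraries 1, 2 and unnumbered, against 46, 353 and 12 reads in fibroblast libraries 1, 2 and 4. On the TMM scale these were 43.3, 47.0 and 0 CPM in exosomes against 7.45, 14.2 and 6.21 CPM in fibroblasts, so that exosome libraries 1 and 2 were above, and the unnumbered library below, all fibroblast libraries. In the fibroblast libraries its rank was only 682, 656 and 648 of 728, and its 7 and 6 exosome reads were close to the median listed miRNA of those libraries at 8 and 7. A count of 0 in the unnumbered library allows a share of up to 0.00252% of its counts (3 counts of the total). In that library 3 counts are 58.4 CPM on the TMM scale, above every value of miR-26a-3p given here. Its 0 therefore does not place it below the fibroblast libraries. The log2 fold change was 1.88 (SE 0.88) and did not pass (edgeR adjusted p = 0.089). Without the unnumbered library it was 2.24 (SE 0.82) and passed (edgeR adjusted p = 0.025; 0.0018 to 0.54 over its 13 settings). miR-26a-3p reached the count filter, 7.81 CPM in at least 3 libraries, through exosome libraries 1 and 2 and fibroblast library 2.

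The passenger miR-26b-3p had 7, 2 and 0 reads in exosome libraries 1, 2 and unnumbered, against 585, 2014 and 102 reads in fibroblast libraries 1, 2 and 4. TMM-scaled values were 43.3, 15.7 and 0 CPM in exosomes and 94.8, 80.9 and 52.8 CPM in fibroblasts, and the groups did not overlap. The log2 fold change was -1.64 (SE 0.72), which did not pass (edgeR adjusted p = 0.069). Without exosome library 1, which held 7 of the 9 exosome reads, it was -3.03 (SE 1.11) and passed (edgeR adjusted p = 0.040). Without the unnumbered library it was -1.37 (SE 0.74, edgeR adjusted p = 0.16).

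Of the 4 members, 2 passed the test as lower in exosomes and 0 as higher, where 29.9% of the 698 tested miRNAs passed, 18.6% lower and 11.3% higher. An unadjusted p under 0.05 was reached by all 4 members and by 263 of the tested miRNAs. On the TMM scale the libraries of the groups were fully separated for 3 members, both guides and miR-26b-3p, all lower in exosomes. For miR-26b-3p this rested on 7, 2 and 0 exosome reads, the highest value being 43.3 CPM against a lowest fibroblast value of 52.8 CPM. Its 0 in the unnumbered library allows up to 3 counts, which are 58.4 CPM on the TMM scale. On that scale 39.4% of tested miRNAs were separated, 24.6% as lower. Without miR-873-3p in the total, miR-26b-3p was not separated as lower. Its share in exosome library 1 was 0.0385%, against 0.00428% to 0.0162% in fibroblast libraries. Over all tested miRNAs the median log2 change was -0.15.

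**Figure D2:**
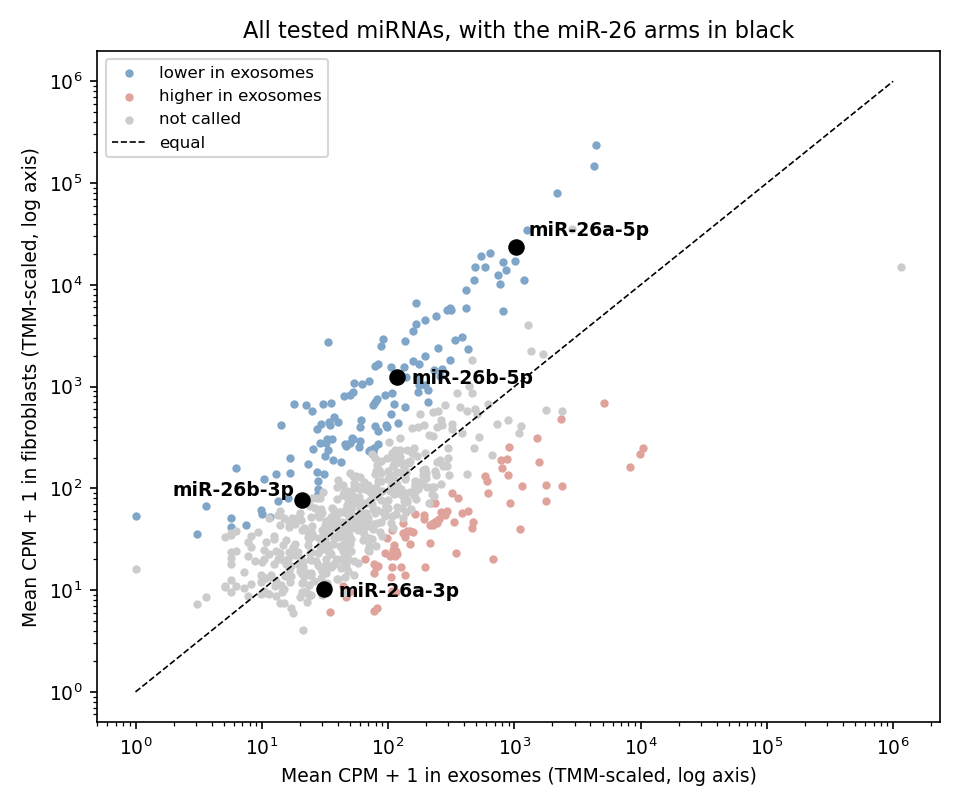
Mean CPM + 1 after TMM scaling of the 698 tested miRNAs in exosomes (horizontal) and fibroblasts (vertical), both on log axes, with miRNAs that passed the test coloured by direction and the miR-26 arms in black. Both guides lie among the miRNAs called lower in exosomes, and both passengers lie among those not called, on opposite sides of the line of equal levels.

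The size of these changes is relative to the scale chosen between libraries. With counts other than miR-873-3p as library size, the median log2 change of the tested miRNAs shifted by 2.52 and the split of calls became 378 higher and 36 lower, against 79 higher and 130 lower with TMM. On that scale miR-26a-5p was -2.27 (SE 0.75), 4.82-fold lower (edgeR adjusted p = 0.0074). miR-26b-5p was -0.80 (SE 0.71) and did not pass (edgeR adjusted p = 0.31), miR-26a-3p was 4.33 (SE 1.24) and passed as higher (0.0018), and miR-26b-3p turned to 0.91 (SE 1.08, 0.46). Total counts gave 43 higher and 121 lower, and library sizes with reads outside the listed miRNAs gave 35 and 195, with median shifts of -0.42 and -0.81. Relative to the median miRNA of each fit the members kept their places over all settings run for each: miR-26a-5p lay between -6.13 and -3.76, miR-26b-5p between -3.56 and -2.86, miR-26b-3p between -2.67 and -1.15 and miR-26a-3p between 1.79 and 2.44. A change of scaling moves all miRNAs of a fit nearly alike, and subtracting the median removes such a shift by arithmetic. For the settings that differ only in scaling, this steadiness was therefore fixed in advance.

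**Figure D3:**
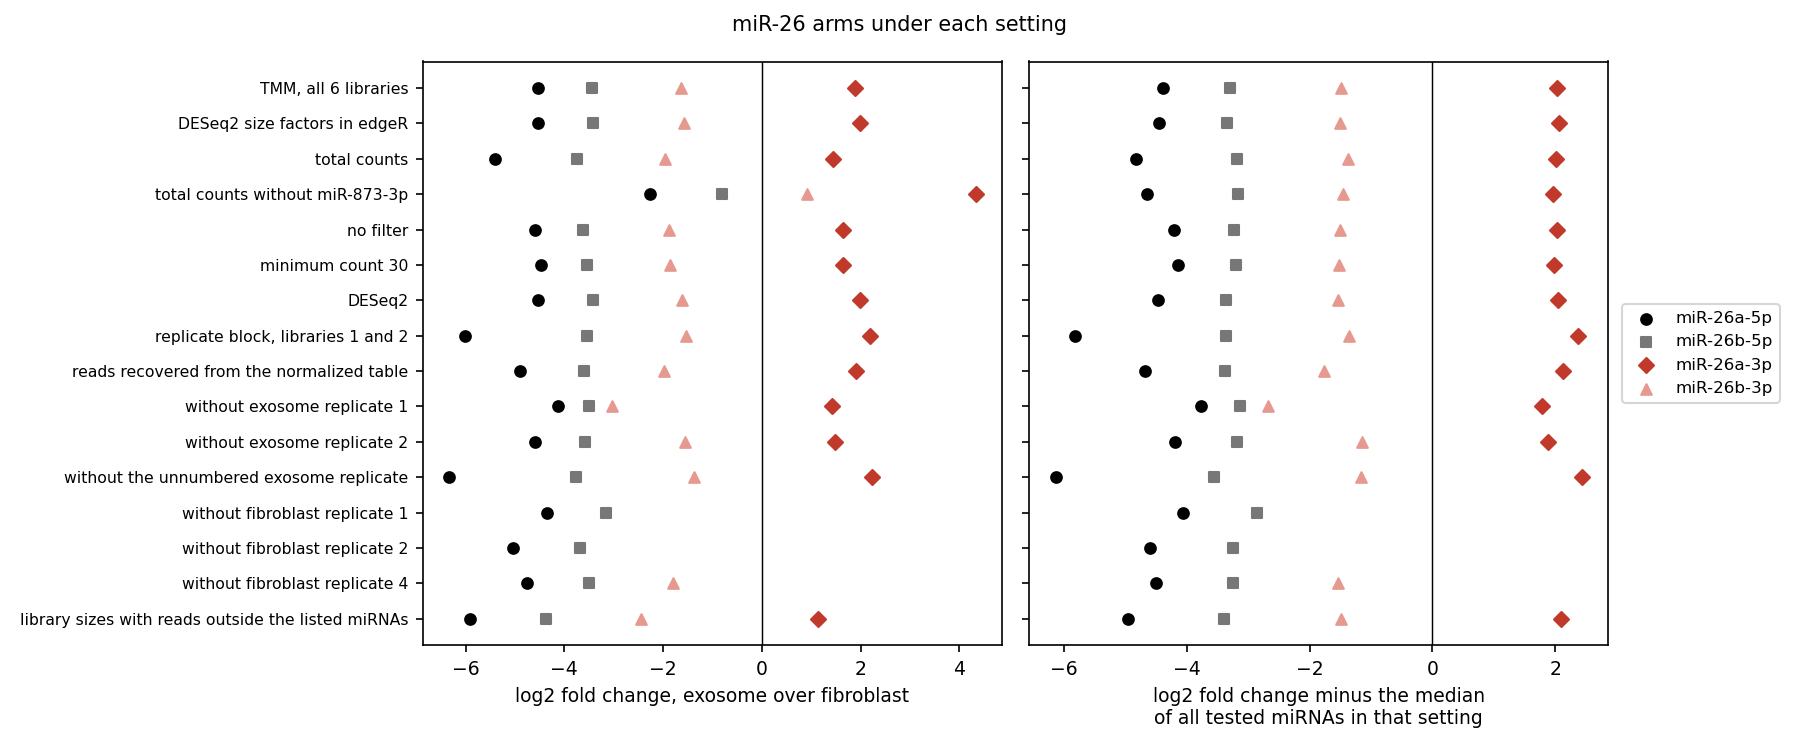
Log2 fold change, exosome over fibroblast, of each miR-26 arm under each setting (left), and the same after subtracting the median of all tested miRNAs in that setting (right); gaps are settings in which a passenger did not reach the count filter. Leaving miR-873-3p out of the library size moves all 4 arms up together on the left, to -2.27 for miR-26a-5p, -0.80 for miR-26b-5p, 4.33 for miR-26a-3p and 0.91 for miR-26b-3p, and not on the right. Subtracting the median removes a shift shared by all miRNAs by arithmetic.

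The same point can be read in reads. At the mean fibroblast share of counts without miR-873-3p, exosome libraries 1, 2 and unnumbered would have held 473, 374 and 308 reads of miR-26a-5p, and the 45, 44 and 127 found were 9.51%, 11.8% and 41.2% of these. For miR-26b-5p 25.3, 19.9 and 16.4 reads would have been held, and 17, 11 and 8 were found. For miR-26a-3p 0.246, 0.194 and 0.160 reads would have been held, and 7, 6 and 0 were found. For miR-26b-3p 1.8, 1.4 and 1.2 reads would have been held, and 7, 2 and 0 were found. The highest upper interval bound of miR-26a-5p in exosomes, 1.28%, lay below its lowest fibroblast share of 1.96%. For miR-26b-5p the upper bounds of 0.150%, 0.137% and 0.133% in exosome libraries 1, 2 and unnumbered lay above its lowest fibroblast share of 0.0995%.

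Shares within the family do not depend on the scale between libraries. miR-26a-5p made up 72.6% (45 of 62, 95% Clopper-Pearson interval 59.8 to 83.1), 80.0% (44 of 55, 67.0 to 89.6) and 94.1% (127 of 135, 88.7 to 97.4) of guide reads in exosome libraries 1, 2 and unnumbered. In fibroblast libraries 1, 2 and 4 it made up 95.3%, 94.2% and 95.2%. The unnumbered exosome library stood at the fibroblast level, and its interval held the values of all 3 fibroblast libraries. The means were 82.2% ± 10.9 in exosomes and 94.9% ± 0.576 in fibroblasts (SD, n = 3 each), a difference of -12.7 percentage points (two-sided exact permutation test, p = 0.1, which is the smallest possible with 3 against 3 libraries). Without the unnumbered library the difference was -18.6 percentage points (exact permutation test, p = 0.2, the smallest possible with 2 against 3).

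The share of the guide arm within each hairpin was likewise lower in exosome libraries 1 and 2. For miR-26a the 5p arm held 86.5% (45 of 52, interval 74.2 to 94.4), 88.0% (44 of 50, 75.7 to 95.5) and 100% (127 of 127, 97.1 to 100) of reads in exosome libraries 1, 2 and unnumbered, against 99.98%, 99.89% and 99.97% in fibroblast libraries 1, 2 and 4. For miR-26b it held 70.8% (17 of 24, 48.9 to 87.4), 84.6% (11 of 13, 54.6 to 98.1) and 100% (8 of 8, 63.1 to 100) in exosomes, against 94.7%, 90.3% and 95.9% in fibroblasts. The groups overlapped in both, because the unnumbered library had no passenger read. The differences were -8.43 percentage points for miR-26a and -8.49 for miR-26b (exact two-sided permutation p = 0.4 for each of these 2). Without the unnumbered library they were -12.7 and -15.9 percentage points (exact permutation test, p = 0.2 for each, the smallest possible with 2 against 3). Without exosome library 1 they were -5.95 and -1.33 percentage points, and the difference in the share of miR-26a-5p among guide reads was -7.87, so that the size of all 3 share differences rested on single exosome libraries. Over the 3 share comparisons the Benjamini-Hochberg adjusted p was 0.3, 0.4 and 0.4.

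**Figure D4:**
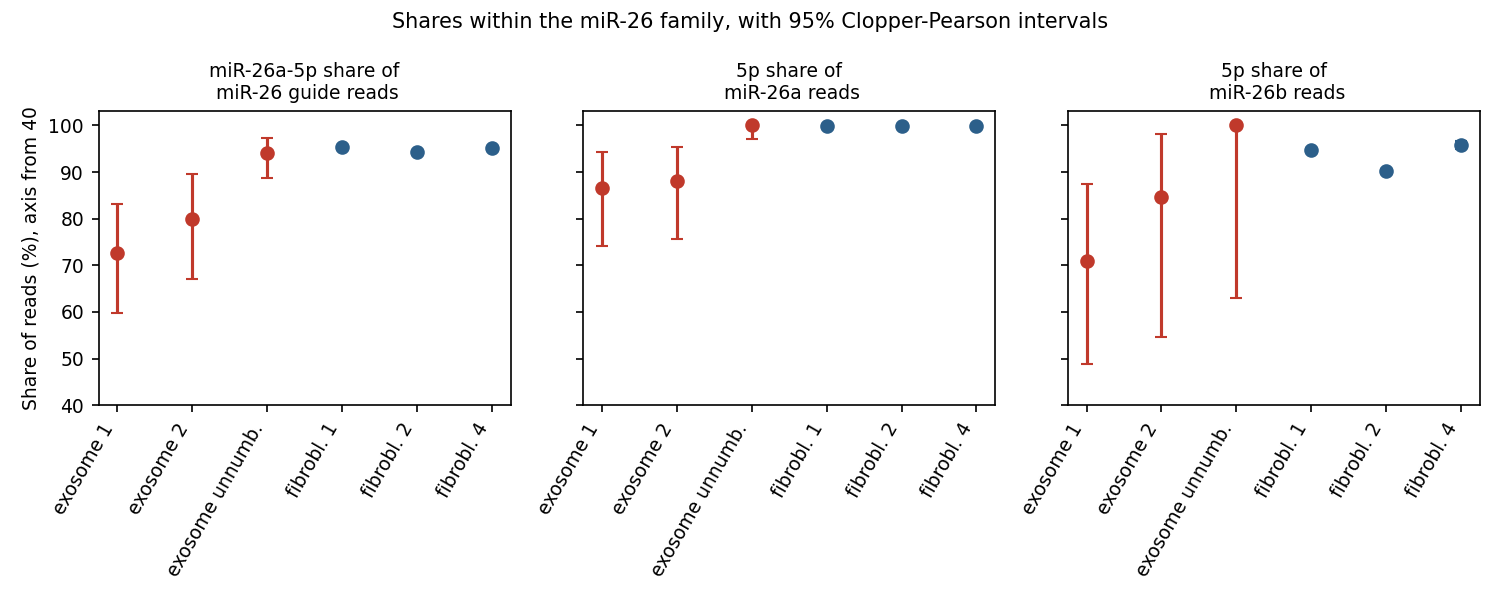
Share of miR-26a-5p among guide reads (left) and of the 5p arm among reads of miR-26a (middle) and miR-26b (right) in each exosome library (red) and fibroblast library (blue), in percent on an axis that starts at 40, with 95% Clopper-Pearson intervals. Exosome libraries 1 and 2 lie below all fibroblast libraries in each panel, and the unnumbered exosome library lies at 94.1%, 100% and 100%.

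Arm usage was also tested across all hairpins with both arms past the filter (edgeR diffSpliceDGE, 248 hairpins). With the arm more abundant in fibroblasts taken as the guide, the guide fell relative to the passenger in 182 hairpins. The median log2 difference was -1.02, and 73 hairpins passed in this direction against 11 in the other. In this order the miR-26a hairpin came 6th from the most negative. The guide was picked by its fibroblast level, which is also the base of the fold change, so this choice itself favours values below 0. The 182 hairpins, the median, the 73 against 11 and the order cannot be told apart from that choice. For miR-26a the log2 fold change of the 5p arm minus that of the 3p arm was -6.42 (adjusted p = 8.1e-09), where 33.9% of the tested hairpins passed. It rested on 13 passenger reads in exosomes and 411 in fibroblasts, and was -8.57 without the unnumbered library (adjusted p = 1.2e-17). For miR-26b the difference was -1.81, which did not pass (adjusted p = 0.0999), and without the unnumbered library it was -2.39 and passed (adjusted p = 0.031).

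Other guide strands of broadly expressed families were set beside miR-26; over all tested miRNAs, 18.6% were called lower and 11.3% higher. Of the let-7 and miR-98 guides, abundant in differentiated cells, 8 of 8 tested members were lower in exosomes, with a median log2 fold change of -4.72; let-7b-5p (-6.76) moved most, followed by let-7d-5p (-5.24), with let-7f-5p at -4.77. All 5 tested miR-30 guides, abundant in heart, were lower, with a median of -3.14, from miR-30c-5p (-4.33) to miR-30b-5p (-2.35). Both tested miR-101 guides, which like miR-26 are known repressors of EZH2, were lower, miR-101b-3p at -3.52 and miR-101a-3p at -3.37. Of 3 miR-29 guides, repressors of collagen messages, miR-29a-3p was lower (-4.52), while miR-29b-3p (-1.94, edgeR adjusted p = 0.15) and miR-29c-3p (-2.09, 0.060) did not pass. By mean fibroblast CPM miR-29a-3p ranked 46 among the 698 tested miRNAs, and miR-29b-3p and miR-29c-3p ranked 487 and 393. The values of the members of these families bracket those of miR-26a-5p and miR-26b-5p, and no difference between families was tested.

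A list of 14 guides reported to restrain fibrosis in heart, chosen with earlier results of these data known, had 12 tested members. Of these 7 were lower in exosomes (18.6% over all tested miRNAs), 0 were higher (11.3%) and 5 did not pass, with a median log2 fold change of -3.24 against -0.15 over all tested miRNAs. The lower members were let-7i-5p, miR-24-3p (-3.23), miR-29a-3p, miR-30a-5p (-3.25), miR-30c-5p, miR-101a-3p and miR-101b-3p. By mean fibroblast CPM these 7 ranked 11 to 107 among the 698 tested miRNAs. The 5 that did not pass ranked 180 to 554. The shares over all tested miRNAs cover every abundance, and the part of abundance in these calls was not tested. miR-378a-3p (-0.65, edgeR adjusted p = 0.48) and miR-133a-3p (-0.73, 0.66), a muscle miRNA, did not pass. Without miR-873-3p in the library size, 11 of the 22 distinct members tested over all 5 guide lists passed, 9 lower and 2 higher, in place of 17 lower and 0 higher.

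**Figure D5:**
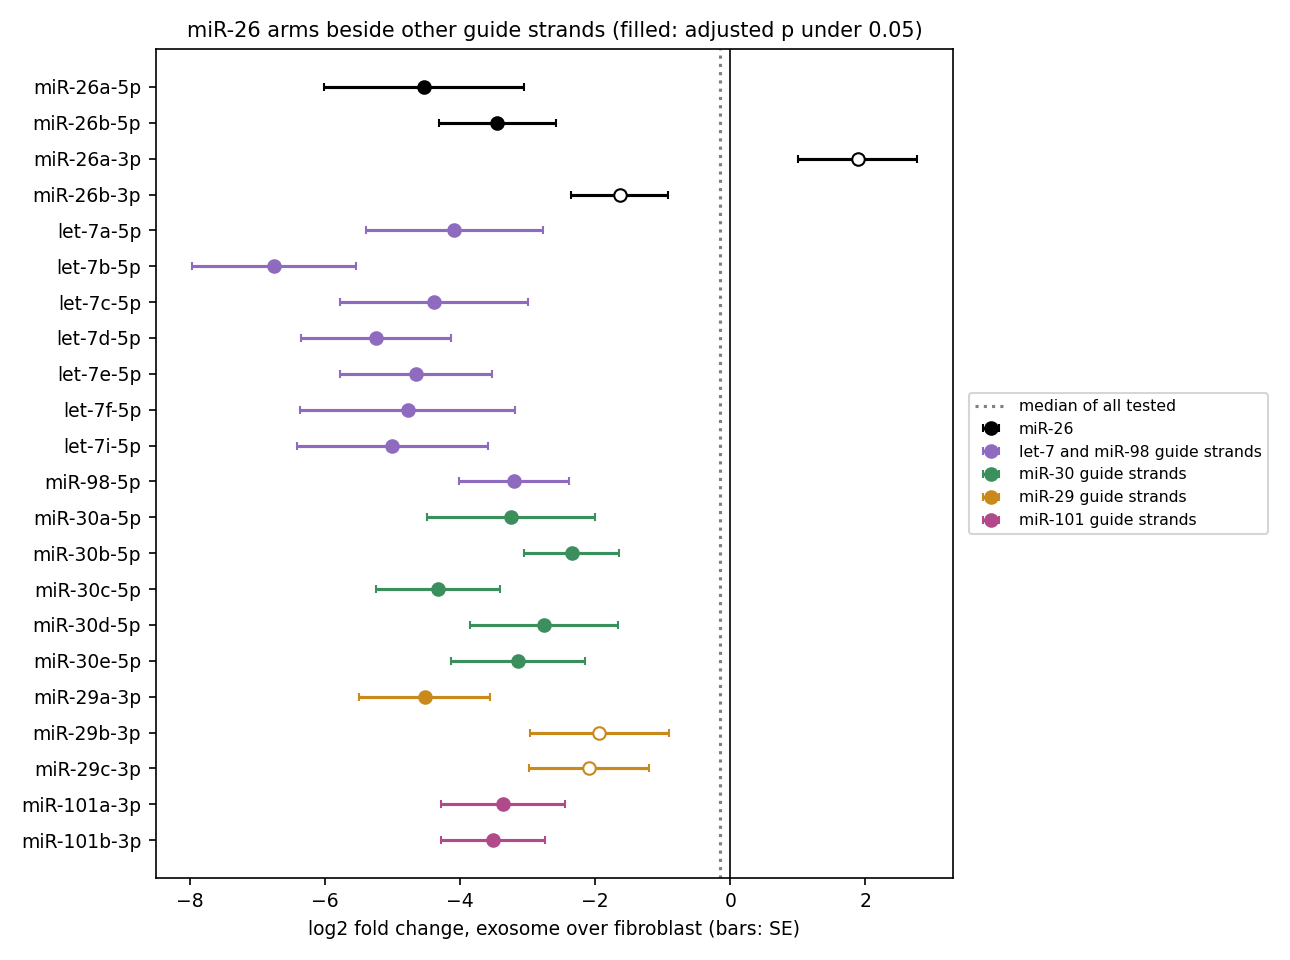
Log2 fold change, exosome over fibroblast, with its SE as bars, of the miR-26 arms (black) and of the tested let-7 and miR-98, miR-30, miR-29 and miR-101 guides (colours); filled symbols passed an adjusted p of 0.05 and the dotted line is the median of all tested miRNAs at -0.15. miR-26a-5p at -4.54 and miR-26b-5p at -3.45 lie within the range of the other guides, and miR-26a-3p at 1.88 is the 1 value above 0.

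The miRNAs whose log2 CPM over the 6 libraries was most like that of miR-26a-5p were miR-148b-3p and miR-34c-5p (Pearson's r = 0.998 each), let-7i-5p, miR-125a-5p and miR-30a-5p (0.998, 0.997 and 0.997). Those most like miR-26b-5p were miR-24-3p (0.997), miR-301a-3p (0.992), miR-423-3p (0.989), miR-155-5p (0.988) and let-7b-5p (0.988). miR-26b-5p came 43rd in the order for miR-26a-5p (r = 0.97), while miR-26b-3p had r = 0.32 and miR-26a-3p r = -0.37 with miR-26a-5p. These 6 points fall into 2 groups and share library depth and scaling, and r is a description only.

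The authors' deposited table gave the comparison as fibroblast over exosome, so that a positive log2 value there means lower in exosomes. In the authors' deposited table miR-26a-5p had a fold of 22.8 (log2 4.51, adjusted p = 0.00089) and miR-26b-5p a fold of 10.4 (log2 3.38, adjusted p = 0.030). For the passengers the authors' deposited table listed log2 values of -1.80 for miR-26a-3p (adjusted p = 0.82) and 2.21 for miR-26b-3p (adjusted p = 0.96).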

How the data were processed

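The main tests used the raw counts that the authors deposited for each mature miRNA. The authors also deposited a normalized signal. Multiplied by 1 size factor for each library, its values all came within 0.1 of whole reads. These reads made up 99.3% to 99.8% of the raw totals and did not always equal the raw counts. For miR-26b-3p they were 5 against 7 raw counts in exosome library 1. In fibroblast libraries 1, 2 and 4 they were 577, 1980 and 101 against 585, 2014 and 102. For miR-26a-5p they equalled the raw counts in every library. The comparison that the authors deposited lists, per the file headers, mean normalized signal, a fold (ratio), a log2 fold, and raw and adjusted p-value columns. CASAVA 1.8.2, cutadapt 1.2.1, DESeq and rn5 come from the submitters' processing notes. Which aligner, counting rule and miRNA release were used is not given in the sources used here. The row named rest in the normalized table (63.1% to 84.4% of reads) names no miRNA and was left out, except in 1 setting.

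Counts were tested with edgeR 4.0.16 (R 4.3.3): TMM, filterByExpr (minimum count 10, minimum total 15; 30 of 728 miRNAs removed), quasi-likelihood test on group, two-sided, Benjamini-Hochberg adjustment, threshold 0.05. SE is the absolute log2 fold change over the root of F. Log2 CPM for likeness used a prior count of 2. Shares were compared with exact permutation tests (SciPy 1.17.1). Named miRNAs were the 4 members, the 5 most like each guide, miR-873-3p and up to 4 passing members per guide list; miR-30b-5p, miR-29b-3p, miR-29c-3p, miR-24-3p, miR-378a-3p, miR-133a-3p, miR-152-3p and the nearest sequences were added after their values were seen. let-7g-5p was not analysed here. The members and lists were chosen with earlier results of these data known. Other settings were other scalings, filters, DESeq2 1.42.0, a replicate block, the reads behind the normalized table and leaving out each library. The scripts were tested on simulated data.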

Additional observations from a re-analysis of the deposited data

How the results depend on the processing

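With miR-873-3p left out of the library size, 414 miRNAs were called in place of 209, 11 guide list members in place of 17, and miR-26b-5p (-0.80) was not called, miR-26a-3p (4.33) was called and miR-26b-3p turned to 0.91. miR-26b-3p passed with no filter (-1.88), a minimum count of 30 (-1.87), the reads behind the normalized table (-1.98) and, chosen after seeing the data, library sizes with reads outside the listed miRNAs (-2.45); miR-26a-3p passed with DESeq2 (1.98). The cause of these was not tested.

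Leaving out 1 library gave log2 fold changes of -6.33 to -4.12 for miR-26a-5p, -3.76 to -3.15 for miR-26b-5p, 1.43 to 2.24 for miR-26a-3p and -3.03 to -1.37 for miR-26b-3p, arm differences of -8.57 to -5.55 for miR-26a and -2.39 to -0.47 for miR-26b, 134 to 212 called miRNAs and 11 to 17 called guide list members. Without exosome library 2, 134 miRNAs were called, and without exosome library 1 or 2, 11 guide list members. miR-26a-3p did not reach the filter without any 1 fibroblast library, nor miR-26b-3p without fibroblast library 1 or 2. In every edgeR fit, with 3 libraries in a group or with 2 left, the estimate of spread drew on all tested miRNAs.

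Libraries 1 and 2 share only a number across groups; the correlation of their deviations was -0.07 and 0.16. With the replicate block on these 4 libraries 242 miRNAs were called, and miR-26a-5p was -6.00, miR-26b-5p -3.55, miR-26a-3p 2.19 (now called) and miR-26b-3p -1.54. The shares kept their direction in all settings. Exosome depth limits the passengers, with 13 and 9 reads over the group.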
